A study of Rattus norvegicus with 24 samples.

Results

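Signal of T and natural killer (NK) lymphocytes in the kidney was followed through 10 genes, chosen by name from those known to mark these cells: Cd3d, Cd3e, Cd3g, Cd2, Cd4, Cd8a, Cd5, Ptprc, Cxcr6 and Nkg7. They were 10 of the 17334 rat Entrez gene identifiers in the deposited tables, and all 10 were found and passed the filter on low counts. The question was whether monthly doses of human cells, or of medium conditioned by them, changed the lymphocyte signal of the cystic rat kidney. No member differed between groups at an adjusted p under 0.05 in any comparison. The widest differences lay between single animals, in that 4 treated animals from 3 different groups held far less of them than the other 20.

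Left kidneys of 24 male PKD/Mhm (Cy/+) rats, 6 in each of 4 groups, were profiled by RNA sequencing. All animals, the controls included, carried a missense change in Anks6 on one allele (Cy/+), which leads to slowly progressing cystic disease, and were 8 months old. Control animals (Ctrl) were left untreated. The CoCM group received medium from a co-culture of human ABCB5+ cells with THP-1-derived macrophages stimulated with interferon gamma and lipopolysaccharide. The other groups received the ABCB5+ cells, stromal cells taken from human skin, by intraperitoneal (i.p. ABCB5+) or intravenous (i.v. ABCB5+) injection. Doses were given once a month for 6 months, and the sources give the route of CoCM differently. No wild-type kidney and no group given vehicle alone was analysed here, so a difference from Ctrl holds both the injection and what was injected. The tissue was whole kidney, frozen without removal of its blood, so each value pools epithelium, vessels, infiltrating leukocytes and retained blood.

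T lymphocytes read antigen through a receptor that signals through the chains of the CD3 complex, and the coreceptors CD4 and CD8 divide them into helper and cytotoxic cells. NK cells kill without that receptor and share granule proteins with cytotoxic T cells. Lymphocytes gather in the interstitium around cysts in polycystic kidneys, next to macrophages, which in the rat can carry CD4 themselves. In whole tissue, fewer cells of a type and less RNA per cell cannot be told apart.

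The CD3 genes were the core of the list. In the rat assembly GRCr8 all 3 lie within a short stretch of chromosome 8, Cd3g at chr8:54177572-54184087, Cd3d at chr8:54184573-54190112 and Cd3e at chr8:54200617-54211770. Cd3g and Cd3e are read from the minus strand and Cd3d from the plus strand, so that Cd3g and Cd3d point away from each other. Their promoters are shown because these genes moved together from animal to animal, as described further on. Each window holds 250 bases before and 50 bases after 1 start taken from RefSeq for GRCr8, printed 5′ to 3′ on the strand of the gene. The source names no transcript, and for Cd3d and Cd3g that start lies inside the span given above, which reaches further upstream, so these windows need not be the only promoter. For Cd3e the start is the end of the span. The coordinates are those of GRCr8 and were not converted from rn6, the build named in the submitters' processing notes. Capitals mark AGGAAG or its reverse complement CTTCCT, the letters of an ETS-type core. The windows are chr8:54183869-54184168 for Cd3g, chr8:54185269-54185568 for Cd3d and chr8:54211721-54212020 for Cd3e.
Cd3g: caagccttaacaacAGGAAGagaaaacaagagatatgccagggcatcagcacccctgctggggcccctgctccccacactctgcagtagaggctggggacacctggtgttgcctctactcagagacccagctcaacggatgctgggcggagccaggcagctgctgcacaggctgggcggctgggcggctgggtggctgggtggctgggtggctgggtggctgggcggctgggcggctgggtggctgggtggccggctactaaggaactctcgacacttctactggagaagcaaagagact
Cd3d: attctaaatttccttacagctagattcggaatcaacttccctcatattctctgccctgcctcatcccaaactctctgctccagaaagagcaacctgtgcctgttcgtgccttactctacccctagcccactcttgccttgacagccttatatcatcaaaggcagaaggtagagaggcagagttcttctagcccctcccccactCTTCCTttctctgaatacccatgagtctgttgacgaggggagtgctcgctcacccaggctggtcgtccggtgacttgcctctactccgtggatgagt
Cd3e: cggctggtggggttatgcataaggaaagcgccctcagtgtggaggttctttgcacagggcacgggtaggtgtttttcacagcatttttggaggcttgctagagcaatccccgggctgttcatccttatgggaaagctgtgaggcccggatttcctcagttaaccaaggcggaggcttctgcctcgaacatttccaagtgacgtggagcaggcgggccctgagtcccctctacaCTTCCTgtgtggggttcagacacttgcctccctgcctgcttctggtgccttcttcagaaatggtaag

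Each of these windows held the ETS-type letters once. Over the members, 7 of the 9 whose promoter is in the RefSeq table held them (Cd3d, Cd3e, Cd3g, Cd5, Cxcr6, Nkg7 and Ptprc), against 34.5% of all 33469 promoters of that length. The letters TGTGGT, the core bound by RUNX factors, or their reverse complement ACCACA, occurred in Cd2 and Nkg7, 2 of the 9, against 17.3% of all promoters. The letters TATAAA or TTTATA occurred in 0 of the 9, against 14.2% of all. Both strands were searched, none of the 3 motifs is contained in another, and a match in letters says nothing about binding.

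Total estimated counts per library ranged from 9304630 to 14125457, and 3 counts, the level below which a gene was taken as not detected, corresponded to 0.212 to 0.322 CPM. Levels are given as CPM, the counts of a gene divided by the scaled size of its library. Each member stood above that level in every control animal. Animals carried numbers from 1 to 24 in Ctrl and from 26 to 43 in the treated groups, so the order of the animals and treatment cannot be told apart.

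Before any comparison, 4 libraries stood apart: CoCM animal 39, i.p. animal 38 and i.v. animals 36 and 37. In animals 36, 38 and 39 all 10 members lay below every one of the other 20 animals, and in animal 37 this held for 9 of 10, the exception being Nkg7 at 2.79 CPM. Cd3e, the epsilon chain of CD3, was at 1.02 CPM in animal 39, 1.94 in animal 38, 2.75 in animal 36 and 3.9 in animal 37, whereas the other 20 animals lay between 12.9 and 31 CPM. Ptprc, which encodes CD45, the phosphatase on the surface of all leukocytes, was at 5.01, 11.6, 16.6 and 17.9 CPM in the same order, against 56.7 to 168 in the others. Cd3g reached only 2 counts in animal 39, and Cxcr6 only 3. Cd8a kept the largest share of its control mean in 3 of the 4 animals, 20.4% in animal 39, 29.97% in animal 38 and 28.4% in animal 36, while in animal 37 it stood at 40.4% and Nkg7 at 56.1%. Animals 38 and 39 also had the lowest total counts of all libraries, 9304630 and 9759947, whereas animals 36 and 37 had 12362456 and 13285940.

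The members were not the only genes to move in these 4 animals. Lyz2, lysozyme of macrophages and the most abundant gene of the macrophage list, was at 92.7 to 341 CPM in them and at 802 to 2055 in the others. Spp1, osteopontin of injured tubules, was at 370 to 670 CPM against 6596 to 13004. In the other direction, Umod, uromodulin of the thick ascending limb, was at 6591 to 9327 CPM against 1067 to 6117, and Mmp9, a neutrophil gelatinase, at 20.8 to 36.2 against 3.62 to 13.5. Mmp9 did not stand for its list. Summed over 12 neutrophil genes the 4 animals, at 27.1 to 43.1 CPM, overlapped the others, at 14.1 to 42.9. Summed over 20 macrophage genes the 4 animals ranged from 265 to 758 CPM and the others from 1534 to 3938, and over 9 genes of tubular injury from 1722 to 2120 against 9804 to 18690. Summed over 12 genes of kidney epithelium they ranged from 21845 to 24852 CPM against 5894 to 15849. The part of tissue make-up in the low lymphocyte signal was not tested. Their numbers ran without a gap from 36 to 39, and the labels give no batch. Comparisons of the members and medians of the gene lists are therefore given with and without them, the second choice having been made after the values were seen.

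**Figure D1:**
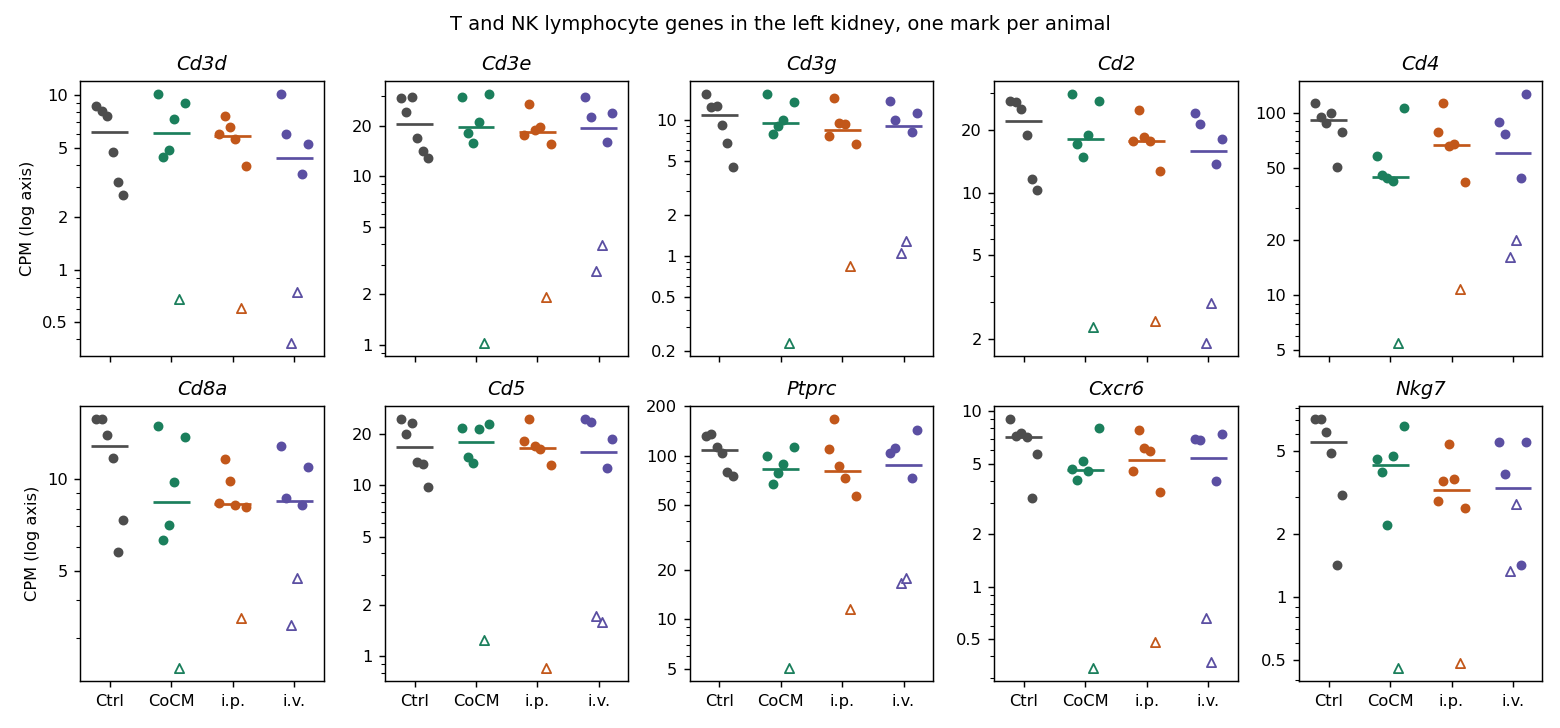
CPM on a log axis of the 10 lymphocyte genes in the 4 groups, 1 mark per animal (n = 6 a group). Bars are group medians, open triangles are animals 36 to 39 and filled circles the other 20 animals. The filled circles of the treated groups overlap those of Ctrl for each gene, and the triangles lie below them for all but 1 value, Nkg7 of animal 37.

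The genes of the CD3 complex differed little between group medians. Cd3e ranged from 12.9 to 29.7 CPM in Ctrl with a median of 20.5, from 1.02 to 31 in CoCM with a median of 19.6, from 1.94 to 27 in i.p. ABCB5+ with a median of 18.2, and from 2.75 to 29.6 in i.v. ABCB5+ with a median of 19.3. Cd3g, the gamma chain, had medians of 10.9, 9.50, 8.54 and 9.10 CPM in the same order, and the 6 control values alone spread 3.43-fold, from 4.55 to 15.6. Cd3d, the delta chain, had medians of 6.17, 6.07, 5.82 and 4.39 CPM, and 2 CoCM animals and 1 i.v. animal exceeded the highest control value of 8.68. All groups overlapped for each chain. Leaving out animals 36 to 39, none of the remaining 14 treated animals lay below the control range for Cd3d, Cd3e or Cd3g.

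Cd2 and Cd5 are surface receptors of T cells, the first for adhesion to antigen-presenting cells and the second a brake on receptor signalling that some B cells also carry. Cd2 ranged from 10.3 to 27.4 CPM in Ctrl with a median of 21.9, and the medians were 18 in CoCM and, with injected cells, 17.6 (i.p.) and 15.9 (i.v.). Cd5 ranged from 9.79 to 24.4 CPM in Ctrl with a median of 16.8, with medians of 17.9, 16.6 and 15.6 in the treated groups. Both genes followed the CD3 chains, with the treated groups inside the control range except for the 4 animals and, above it, 2 CoCM animals for Cd2 and 1 i.p. animal for Cd5.

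The coreceptor Cd4 showed the widest gap between group medians. It ranged from 50.5 to 114 CPM in Ctrl with a median of 91.1, and from 5.46 to 107 in CoCM with a median of 44.7. In CoCM, 4 of 6 animals lay below the lowest control, and still 3 of 5 without animal 39. In i.p. ABCB5+ Cd4 ranged from 10.8 to 114 CPM with a median of 66.5, and in i.v. ABCB5+ from 16.3 to 128 with a median of 60.1, with 2 and 3 of 6 animals below the control range, or 1 of 5 and 1 of 4 without the animals that stood apart. Cd8a, the alpha chain of CD8 on cytotoxic T cells and on NK cells of the rat, ranged from 5.77 to 15.8 CPM in Ctrl with a median of 12.8. Its medians were 8.44 in CoCM, 8.28 after i.p. and 8.46 after i.v. injection, all within the control range, and outside animals 36 to 39 no treated animal left that range.

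Cxcr6, the receptor for Cxcl16 on memory-type T and NK cells, ranged from 3.20 to 9.10 CPM in Ctrl with a median of 7.17, and had medians of 4.61 in CoCM, 5.27 after i.p. and 5.43 after i.v. injection. Nkg7, a protein of cytotoxic granules, ranged from 1.42 to 7.14 CPM in Ctrl with a median of 5.54, with medians of 4.28, 3.24 and 3.34 in the treated groups. Its control values spread 5.02-fold, more than those of any other member. Ptprc ranged from 75.5 to 135 CPM in Ctrl with a median of 109 and spread least, 1.79-fold, and its medians were 83.4, 80.1 and 87.8 in CoCM, i.p. and i.v. ABCB5+. Ptprc and Cd4 were the only members for which treated animals outside the 4 fell below the control range, 4 animals for Ptprc and 5 for Cd4.

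**Figure D2:**
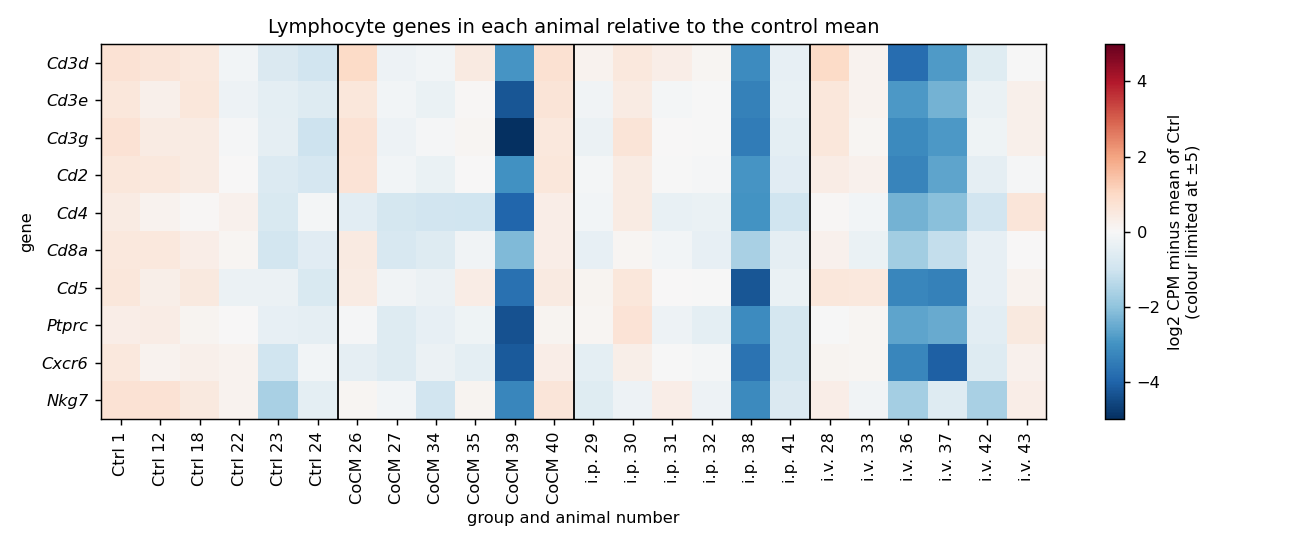
Log2 CPM of each lymphocyte gene in each animal minus its mean over the 6 Ctrl animals, with colour limited at ±5. Columns are animals by group and number, and vertical lines part the groups. The columns of CoCM 39, i.p. 38, i.v. 36 and i.v. 37 are blue over nearly all genes, and the other columns stay pale.

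Levels can be compared between genes only per length, as TPM. In Ctrl Cd4 was the highest member at 74.1 ± 15.2 TPM (SD, n = 6), followed by Cd3e at 33.8 ± 10.4, Cd3g at 32.8 ± 11.9, Ptprc at 30.99 ± 6.99 and Cd2 at 27.4 ± 9.94. Lower levels were found for Cd3d at 16.8 ± 7.10, Cd8a at 12.96 ± 4.50, Cd5 at 12.3 ± 3.69, Nkg7 at 10.97 ± 4.97 and Cxcr6 at 10.2 ± 2.61 TPM. Only the steps from Cd4 to Cd3e (40.3 TPM) and from Cd2 to Cd3d (10.6 TPM) were larger than the larger SD of the neighbours. All genes were measured in the same 6 animals, so the SD does not decide their order within an animal, which was not tested.

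Conditioned medium was compared with Ctrl first. Of the 10 members 9 had a lower and 1 (Cd3d) a higher estimate in CoCM, with a median log2 fold change of -0.25 beside 0.01 over the 12778 genes tested. Cd4 had the largest difference, at -0.79 ± 0.53 (log2 fold change ± SE, 95% interval -1.90 to 0.31, edgeR adjusted p = 0.516). Cxcr6 followed at -0.56 ± 0.59 and Ptprc at -0.50 ± 0.57, while Cd3e was at -0.12 ± 0.58 with an interval from -1.32 to 1.08. In edgeR 0 of 10 members passed an adjusted p under 0.05, where 0.00783% of all genes did (1 gene), and 0 of 10 passed an unadjusted p under 0.05, where 11.9% did. DESeq2 called 81 genes in this comparison and limma-voom with sample quality weights 183, none of them a member, and limma on TPM called 0 genes.

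Without animals 36 to 39 the members split evenly in CoCM, 5 higher and 5 lower, with a median of -0.04. Cd4 was then at -0.57 (interval -1.19 to 0.05, edgeR adjusted p = 0.327), and Cd3e at 0.12 ± 0.24. Again 0 of 10 members passed at either threshold, where 0% of 12884 genes passed the adjusted and 16.9% the unadjusted one. The members' share of calls did not exceed that of all genes in either set of animals. Cd4 passed an unadjusted p of 0.05 under 2 of its 33 alternatives, voom with quality weights (-0.90, adjusted p = 0.155) and the fit without CoCM animal 40 (-1.16, adjusted p = 0.313). Its adjusted p ranged from 0.155 to 0.673 over these alternatives.

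The injected cells were compared with Ctrl by route and as the mean of both routes, 3 comparisons that share the control animals. All 10 members had lower estimates in each of them. The median log2 fold change of the members was -0.34 for i.p. ABCB5+, -0.47 for i.v. ABCB5+ and -0.42 for their mean, beside medians of 0.00, 0.01 and 0.01 over all genes. Nkg7 had the largest difference in i.p. ABCB5+, at -0.66 ± 0.50 (edgeR adjusted p = 0.978), and Cxcr6 in i.v. ABCB5+, at -0.59 ± 0.59 (edgeR adjusted p = 0.718). For the mean of both routes Nkg7 was at -0.60 ± 0.42, Cd8a at -0.51 ± 0.32 and Cd3e at -0.35 ± 0.50. Cd8a had the smallest p of the members there (edgeR adjusted p = 0.723, interval -1.17 to 0.15).

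In edgeR 0 of 10 members passed an adjusted p under 0.05 in any of these 3 comparisons, as did 0% of all genes. At an unadjusted p under 0.05 the members again counted 0 of 10, where 1.77% of all genes passed for i.p., 5.78% for i.v. and 3.27% for the mean. DESeq2 called 0 genes for i.p., 1 for i.v. and 0 for the mean, and voom and limma on TPM called 0 in each, so no member was called by any tool. An F-test over the 4 groups gave 0 of 10 members at either threshold (0% and 4.71% of all genes), with a smallest adjusted p of 0.826 among them.

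Leaving out animals 36 to 39 raised the estimates of the members in the cell groups. These animals, all treated, held the lowest values of nearly all members, so such a rise was built into the choice. It does not show whether the other treated animals differed from Ctrl. Without animals 36 to 39 the median over the members was -0.11 for i.p. ABCB5+ (2 higher, 8 lower), -0.02 for i.v. ABCB5+ (5 higher, 5 lower) and -0.07 for the mean (3 higher, 7 lower). Cd3e was then at 0.01 for the mean of both routes, with an interval from -0.43 to 0.45, and Cd3g at 0.00, from -0.50 to 0.50. Cd8a was at -0.27 (-0.75 to 0.20) and Nkg7 at -0.36 (-1.04 to 0.31). Members counted 0 of 10 at both thresholds, where 0% of all genes passed the adjusted one and 1.39% (i.p.), 1.23% (i.v.) and 1.34% (mean) the unadjusted one. Standard errors of the members were 0.32 to 0.63 over the 5 comparisons with all 24 animals, and 0.21 to 0.42 without the 4.

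The routes were set against each other in the same way. Between i.p. and i.v. ABCB5+ 9 members had a higher and 1 (Nkg7) a lower estimate with i.p. injection, with a median of 0.11 beside 0.00 over all genes. The largest difference was that of Cd3d, 0.22 ± 0.61, with an interval from -1.03 to 1.48. Without animals 36 to 39 all 10 members were lower with i.p. injection, with a median of -0.15 and estimates from -0.21 to -0.05, so the direction changed with the animals left out. In both sets 0 of 10 members passed either threshold, where 0% of all genes passed the adjusted one and 2.14% (all 24 animals) or 1.13% (20 animals) the unadjusted one. DESeq2 called 1 gene here, not a member, and voom and limma on TPM called 0.

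**Figure D3:**
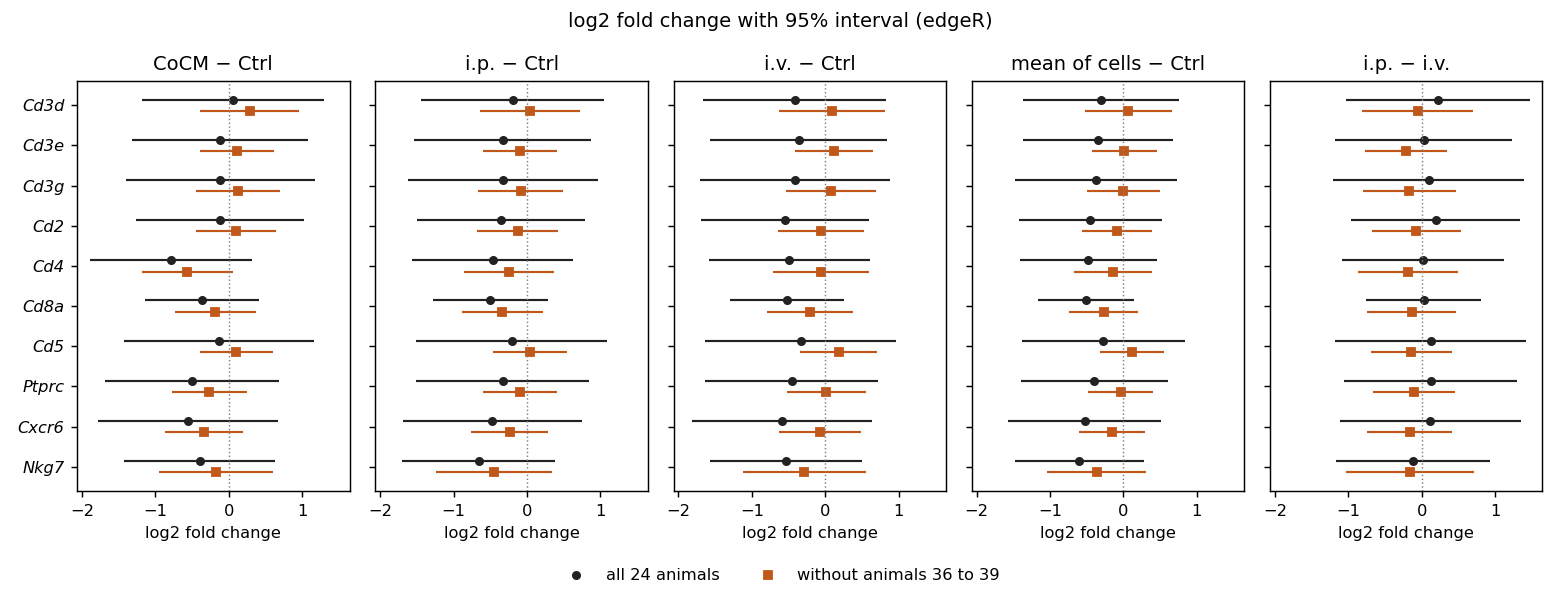
Log2 fold change of each lymphocyte gene with its 95% interval (edgeR) in the 5 comparisons, over all 24 animals (black circles) and without animals 36 to 39 (orange squares). All intervals include 0, and each is narrower when the 4 animals are left out. Cd4 in CoCM stays lowest in its panel in both sets.

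The balance between members was compared through ratios within an animal, which do not depend on how libraries were scaled. The log2 ratio of Cd8a to Cd4 was -2.95 ± 0.31 in Ctrl and -2.27 ± 0.67 in CoCM (SD, n = 6 each), a difference of 0.67 (two-sided exact permutation test, p = 0.0476, adjusted p = 0.190 over 8 tests). The log2 ratio of Cd3e to Ptprc was -2.37 ± 0.27 in Ctrl and -2.02 ± 0.22 in CoCM, a difference of 0.35 (exact p = 0.0390, adjusted p = 0.190). Neither passed the adjusted threshold, although the design allowed a p as small as 0.00216. As linear ratios, Cd8a to Cd4 ranged from 0.0940 to 0.166 in Ctrl and from 0.129 to 0.443 in CoCM, the highest being animal 39, so the groups overlapped. Without that animal the difference was 0.45 (exact p = 0.0866, n = 5 and 6) for Cd8a to Cd4 and 0.39 (exact p = 0.0303, adjusted p = 0.242) for Cd3e to Ptprc. For both cell groups, against Ctrl or each other, the smallest exact p of the other 6 tests was 0.357.

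**Figure D4:**
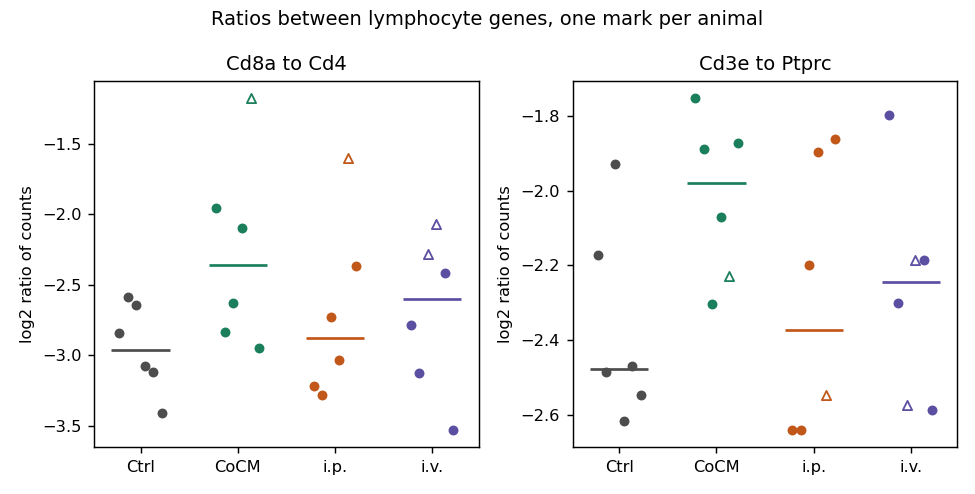
Log2 ratios of counts of Cd8a to Cd4 (left) and Cd3e to Ptprc (right) by group, 1 mark per animal (n = 6 a group), with bars at the medians and open triangles for animals 36 to 39. CoCM has the highest median in both panels, and its values overlap those of Ctrl.

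Since animals 36 to 39 formed a cluster of their own, relations between genes are given over the other 20 animals and within Ctrl. They were also computed within each treated group of 6 but are not read, since each of these groups includes animals of that cluster. Cd3e rose with C1qa, a complement gene of tissue macrophages, with Pearson's r = 0.79 (permutation p = 8e-05, adjusted p = 0.00048 over 6 coefficients) and Spearman's rho = 0.77 (permutation p = 0.00017). Without the 2 animals farthest from the median of C1qa r was 0.86 (n = 18). Within Ctrl alone r was 0.81 (exact permutation p = 0.0597, n = 6), which did not pass the threshold. Cd3e and Spp1 gave r = 0.32 (permutation p = 0.172) and rho = 0.26 (p = 0.258), and r = 0.30 without the 2 farthest animals. Cd3e and Hbb, a beta globin of red blood cells and a measure of retained blood, gave r = 0.08 (permutation p = 0.722) and rho = 0.03 (p = 0.903), and r = 0.00 without the 2 farthest. Hbb itself ran from 13.9 to 470 CPM in these animals apart from Ctrl animal 1 at 1384, and no relation of the T cell signal to retained blood was detectable over these 20 animals.

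**Figure D5:**
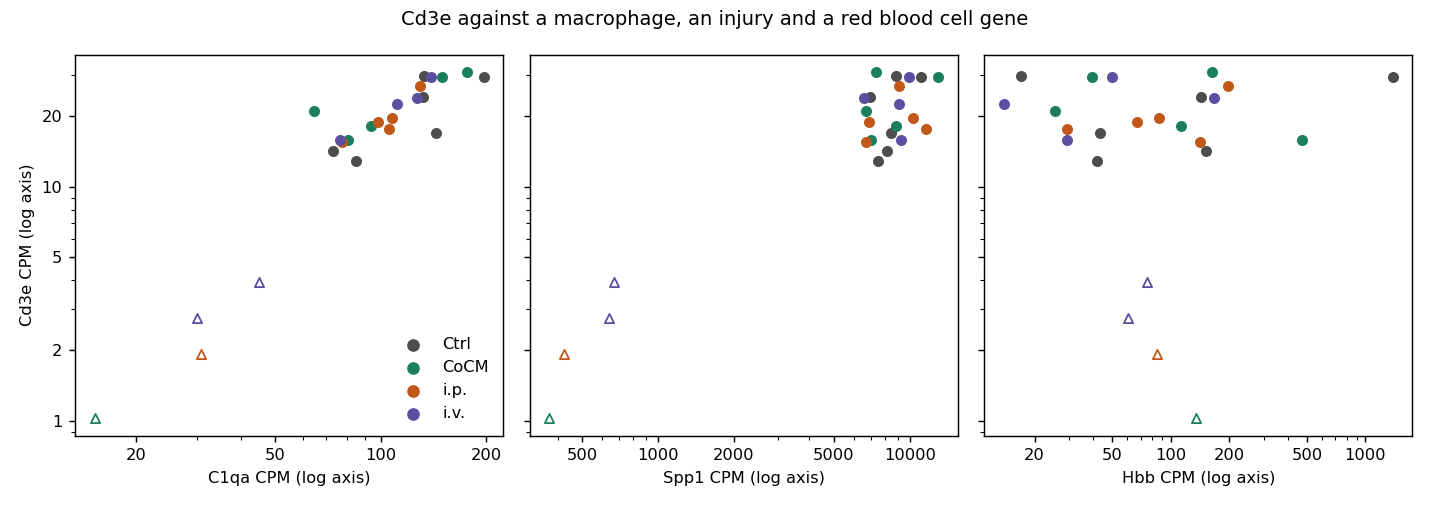
Cd3e against C1qa, Spp1 and Hbb, all as CPM on log axes, 1 mark per animal coloured by group. Open triangles are animals 36 to 39, which lie apart for C1qa and Spp1 and within the range of the others for Hbb. Among the filled circles (20 animals) Cd3e follows C1qa (r = 0.79) and shows no clear relation to Spp1 (r = 0.32) or Hbb (r = 0.08).

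The members varied together among the 20 animals, to different degrees. Pearson's r with Cd3e was 0.94 for Cd3g and Cd2, 0.93 for Cd5, 0.92 for Cd3d and 0.85 for Cd8a, and 0.75 for Nkg7, 0.70 for Ptprc, 0.67 for Cxcr6 and 0.58 for Cd4. Spearman's rho ran in a like range, from 0.56 for Cd4 to 0.93 for Cd3g. All 9 relations passed, with permutation p-values from 1e-05, the smallest the permutations can give, to 0.00909 for r of Cd4 (adjusted p = 0.00963 over 18 coefficients), and without the 2 farthest animals r lay between 0.58 and 0.94 (n = 18). These 9 relations were added after the values were seen. Since the members were chosen as markers of T and NK cells, relations between them in whole tissue could be foreseen, and they are a description. Cd4 had the lowest coefficient of the 9, and differences between coefficients were not tested.

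Outside all lists, the genes whose pattern over the 24 animals was most like that of the mean of the CD3 genes were Ptprcap (rho = 0.96), Limd2 (0.96), Arhgap9 (0.96), Sash3 (0.95), Efhd2 (0.95), Map4k1 (0.95), Tacc3 (0.95), Gimap7 (0.95), Lax1 (0.94) and Ltb (0.94), out of 12215 genes compared. Over the 20 animals alone their rho lay between 0.90 and 0.94. All points share their libraries and the 4 animals weigh on the rank order, so these values are a description. Ptprcap, the most alike, encodes a protein bound to CD45, and Ltb a lymphotoxin chain of lymphocytes.

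Other lymphocyte genes were counted in 5 lists. In T cell receptor signalling 24 of 25 genes were in the files and tested, and 0 passed an adjusted p under 0.05 in any comparison. The median log2 fold change was -0.23 in CoCM (19 of 24 lower) and -0.31 for the mean of the cell groups (20 of 24 lower), and without animals 36 to 39 it was -0.04 and 0.01. Its genes with the smallest p were Sla2, an adaptor that damps receptor signalling, in CoCM (-0.90 ± 0.47, edgeR adjusted p = 0.443), Cd8b, the beta chain of CD8, in CoCM and the cell groups (-0.73 and -0.60), and Cd96, a receptor of T and NK cells, in the cell groups (-0.60 ± 0.45). Sla2 lay at 0.848 to 1.54 CPM in Ctrl and at 0.305 to 0.964 in CoCM, with 5 of 6 animals below the control range.

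In the cytotoxic and NK list 17 of 23 genes were tested and 0 called. Medians were -0.48 in CoCM (15 of 17 lower) and -0.51 for the cell groups (17 of 17 lower), and -0.27 and -0.21 without animals 36 to 39, when 18 genes were tested. Gzma, the tryptase granzyme of cytotoxic cells, had the smallest p in both comparisons, at -1.04 ± 0.41 in CoCM (edgeR adjusted p = 0.370) and -1.06 ± 0.34 for the cell groups (adjusted p = 0.723). It was a rare transcript, at 0.266 to 3.06 CPM in Ctrl, 0.263 to 1.14 in CoCM and 0.335 to 1.45 in the cell groups, and in 1 CoCM and 0 cell-treated animals did it lie below the control range. Without the 4 animals Gzma was at -1.15 in CoCM and -0.98 for the cell groups, close to its values with them. Klrb1a, a lectin-like NK receptor, was at -1.05 ± 0.39 for the cell groups (edgeR adjusted p = 0.723), with 6 of 12 animals below the control range, and Gzmb, the aspartate-cutting granzyme, at -0.92 ± 0.44 in CoCM (edgeR adjusted p = 0.416). At an unadjusted p under 0.05 the list counted 2 of 17 in CoCM and 3 of 17 for the cell groups, beside 11.9% and 3.27% of all genes.

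Lists of subset and activation genes and of chemokines were counted in the same way. Of 17 genes for T cell subsets, activation and exhaustion tested, 0 passed an adjusted or an unadjusted p under 0.05 in either CoCM or the cell groups. The unadjusted threshold was passed by 11.9% and 3.27% of all genes. Medians of the list were -0.19 and -0.27. Without animals 36 to 39 these medians were -0.02 and 0.09, so that of the cell groups changed sign. Its genes with the smallest p were Icos, a costimulatory receptor (-0.38 ± 0.30 in CoCM), Satb1, a chromatin organiser of T cells (-0.19 in CoCM and -0.27 for the cell groups), and Il2rg, the common cytokine receptor chain (-0.39 for the cell groups). Of 19 chemokine, receptor and adhesion genes 0 were called, with medians of -0.21 and -0.38, which went to -0.03 and -0.06 without the 4 animals. Ccl5, a chemokine that T and NK cells release, was at -0.69 ± 0.39 in CoCM and -0.80 ± 0.33 for the cell groups (edgeR adjusted p = 0.723). S1pr1, which lets lymphocytes leave tissue, was at -0.28 ± 0.18 in CoCM, and Cd48, a ligand of the CD2 family, at -0.45 ± 0.23 for the cell groups.

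Most genes of the B and plasma cell list were low in the same 4 animals. Of 16 genes on the list 13 were in the files, and 9 of these 13 lay below all other animals in each of animals 36 to 39. Mzb1, Xbp1, Tnfrsf17 and Cxcr5 overlapped the other animals. Cd22, an inhibitory receptor of B cells chosen here after its values were seen, was at 1.37 to 2.79 CPM in them and at 10.7 to 32.6 CPM in the others. Xbp1, a secretory factor that other cells also use, made up most of the summed level and did not separate the animals, at 233 to 297 CPM in the 4 and 214 to 296 in the others. Without Xbp1 the sum was 11.6 to 15.9 CPM in the 4 animals and 55.2 to 191 in the others, and the sum of the members was likewise apart, at 19.1 to 56.4 against 165 to 404 CPM.

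In the comparisons 0 of the 13 genes were called. The list had medians of 0.02 in CoCM and -0.19 for the cell groups, and of 0.17 and 0.13 without the 4 animals, so that of the cell groups changed sign. Its genes with the smallest p were Xbp1 (0.15 ± 0.09 in CoCM) and Pax5, a B cell transcription factor (0.56 ± 0.79), in CoCM, and Blk, a kinase of the B cell receptor (-0.56 ± 0.42), and Xbp1 (0.07 ± 0.07) for the cell groups. Without the 4 animals Pax5 was at 0.80 and Blk at -0.22.

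Marker lists of other cells in the tissue are given for comparison, and 0 genes of each were called. Over 17 pan-leukocyte genes, led by Lcp1, medians were -0.31 in CoCM and -0.45 for the cell groups, and -0.11 and -0.13 without animals 36 to 39. Over 19 macrophage genes they were -0.38 and -0.50, and -0.15 and -0.19 without them. Dendritic cell genes, 7 led by Irf8, had medians of -0.43 and -0.50, and then of -0.18 and -0.13, and 6 neutrophil genes had -0.39 and -0.51, and then -0.21 and -0.18. Over 12 genes of kidney epithelium medians were 0.26 and 0.26, and 0.01 and 0.03 without the 4 animals. Tubular injury had medians of -0.06 and -0.30 over 9 genes, and of 0.14 and -0.02 without them, the first changing sign. The medians of these lists thus moved to different degrees when the 4 animals were left out. For the cell groups 13 of 17 pan-leukocyte, 17 of 19 macrophage, 7 of 7 dendritic cell and 6 of 6 neutrophil genes were still lower then.

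Medians of red blood cell genes hardly changed without animals 36 to 39. Over 8 genes they were -0.90 in CoCM and -1.82 for the cell groups, and -0.89 and -1.82 without these animals. For the cell groups 6 of 8 had an unadjusted p under 0.05 in both sets of animals, beside 3.27% and 1.34% of all genes. The list, led by Hba-a2, had sums from 295 to 10508 CPM in Ctrl with a median of 1234, and of at most 3445 in a treated animal. Whether the macrophage, epithelial or blood content of the tissue had a part in the estimates of the lymphocyte genes was not tested.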

How the data were processed

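RNA was taken from whole left kidneys of 24 rats and sequenced on the BGISEQ-500 platform. Per the labels, the submitters' processing notes name Trim Galore 0.6.4, kallisto 0.4.6 and the build rn6, whereas human gene models are cited in the methods of the study, so the annotation behind the gene identifiers is not clear. For each animal the authors deposited estimated counts, not normalized, and TPM values, scaled by the authors to transcript length and library total, for 17334 Entrez identifiers. Symbols came from the NCBI RefSeq table of GRCr8, in which 17179 identifiers were found.

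Groups and animal numbers were taken from the labels, and no label states a batch. Estimated counts were rounded, filtered with filterByExpr by group (12778 genes left), scaled by TMM and fitted for all 24 samples with a mean per group in edgeR 4.0.16 (R 4.3.3), with quasi-likelihood F-tests and Benjamini-Hochberg adjustment over all genes tested at a threshold of 0.05. The SE of a log2 fold change came from its size and F, and intervals are 95%. The study names DESeq2, which was run as an alternative (1.42.0). The cell groups were compared with Ctrl singly and as their mean. Ratios within an animal (prior count 0.5) were tested with two-sided exact permutation tests, and relations with 100000 permutations. Log2 CPM used a prior count of 2 where values were correlated or gaps tested. P-values measure the spread between these animals only. No library repeated another of its group, since chi-square per degree of freedom was 10.3 or more for each pair. The code was tested on simulated data before use.

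The members, the lists and the tests were chosen with earlier results of these data known. Named genes were the 10 members, the 2 genes with the smallest p in CoCM and in the mean of the cell groups in each lymphocyte list, the most abundant gene of each other list and the genes used in relations, and the 10 genes most like the CD3 genes. Alternatives were DESeq2, size factors by median ratio, a fit with low genes kept, a minimum of 10 counts per sample, limma 3.58.1 voom with sample quality weights, only the groups compared, limma-trend on log2(TPM + 0.1) and log2(TPM + 1), and leaving out each animal. Leaving out animals 36 to 39 together, the relations between members and the levels of single B cell genes, were added after the values were seen. Intervals of fold changes include the spread between animals. The floor of 3 counts covers counting error only, since reads carry no molecular identifiers.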

Additional observations from a re-analysis of the deposited data

Results flagged for a closer look

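In groups of 6, the lowest or highest value of a member or ratio was set apart when its gap to the next animal, divided by the range of the group, exceeded Dixon's 95% limit. Of 48 tests, the 10 members and 2 ratios in 4 groups, 16 held such a value, and all 16 were low values of CoCM animal 39 or i.p. animal 38. Chance gives about 2.4 on average. The members varied together within an animal, so the 16 values are not separate findings, and chance was not tested. In CoCM animal 39 these were, as log2 CPM with a prior count of 2, Cd3d at -0.2468, Cd3e at 0.2439, Cd3g at -1.367, Cd2 at 1.284, Cd4 at 2.491, Cd5 at 0.4975, Ptprc at 2.369 and Cxcr6 at -0.996. The next lowest CoCM animal had 4 for Cd3e and 6.08 for Ptprc. In i.p. animal 38 they were Cd3d at -0.3853, Cd3e at 1.069, Cd3g at 0.01132, Cd2 at 1.369, Cd8a at 1.877, Cd5 at 0.01132, Cxcr6 at -0.6338 and Nkg7 at -0.6338, with the next lowest i.p. animal at 3.98 for Cd3e. The i.v. animals 36 and 37 lay close to each other, so a single gap did not part either of them from its group.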

How the results depend on the processing

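The number of members called was 0 in all 5 comparisons under every alternative run. Of 2454 values recomputed, 2373 kept both their sign and their call, and 81 changed sign, none of them with an adjusted p under 0.05. Requiring 10 counts per sample left 4 of the 10 members (Cd2, Cd4, Cd8a and Ptprc). TPM values with 0.1 added moved the median of all genes by -0.11 in CoCM. At this depth the rarest members rest on few reads in the 4 low animals, 2 counts for Cd3g and 3 for Cxcr6 in animal 39. No paired analysis was possible because no animal number occurred in more than 1 group.

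Without animals 36 to 39, log2 fold changes that changed sign were, in CoCM, 0.12 for Cd3e, 0.13 for Cd3g, 0.10 for Cd2 and 0.10 for Cd5. In i.p. ABCB5+ they were 0.038 for Cd3d and 0.042 for Cd5, in i.v. ABCB5+ 0.092 for Cd3d, 0.12 for Cd3e, 0.083 for Cd3g, 0.18 for Cd5 and 0.014 for Ptprc, and for the mean of the cell groups 0.065 for Cd3d, 0.012 for Cd3e and 0.11 for Cd5. For i.p. against i.v. they were -0.055 for Cd3d, -0.21 for Cd3e, -0.17 for Cd3g, -0.071 for Cd2, -0.19 for Cd4, -0.14 for Cd8a, -0.14 for Cd5, -0.11 for Ptprc and -0.16 for Cxcr6. The log2 ratio of Cd8a to Cd4 went to -0.017 for i.v. against Ctrl and to 0.038 for i.p. against i.v. These values were made with 4 fewer animals.

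With voom and sample quality weights the sign changed for Cd3d in i.p. (0.054), for Cd5 in CoCM (0.0096) and i.v. (0.046), and for i.p. against i.v. in Cd3e (-0.10), Cd3g (-0.035), Cd4 (-0.057), Cd5 (-0.11), Ptprc (-0.16) and Nkg7 (0.30). With TPM it changed for Cd3d in CoCM, to -0.29 with 0.1 added and -0.23 with 1 added, and for Xbp1 in the mean of the cell groups, to -0.0073 with either. The cause was not tested.

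Leaving out 1 animal at a time changed the sign of 17 values. In CoCM the ranges were -0.15 to 0.30 for Cd3d, -0.31 to 0.13 for Cd3e, -0.32 to 0.14 for Cd3g, -0.31 to 0.11 for Cd2 and -0.26 to 0.11 for Cd5. In i.p. ABCB5+ they were -0.35 to 0.030 for Cd3d and -0.41 to 0.032 for Cd5. For i.p. against i.v. they were -0.014 to 0.68 for Cd3d, -0.19 to 0.29 for Cd3e, -0.16 to 0.36 for Cd3g, -0.036 to 0.44 for Cd2, -0.24 to 0.36 for Cd4, -0.14 to 0.21 for Cd8a, -0.11 to 0.38 for Cd5, -0.19 to 0.39 for Ptprc, -0.12 to 0.35 for Cxcr6 and -0.35 to 0.090 for Nkg7. In CoCM the sign changed without animal 39 for Cd3e, Cd3g, Cd2 and Cd5, without Ctrl animal 1 also for Cd3g, and without CoCM animals 26 or 40 or Ctrl animals 23 or 24 for Cd3d.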

Other observations

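The ratio of Cd3e to Cd4, chosen after the values were seen and not tested, had a median of 0.380 in CoCM, with a range from 0.196 to 0.507, and of 0.256 in Ctrl, from 0.165 to 0.339. After injection of cells the medians were 0.263 (i.p.) and 0.246 (i.v.). In animals 36 to 39 this ratio lay between 0.171 and 0.196, inside the control range, although Cd3e itself was far lower there.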
